A study of Mus musculus with 24 samples.

Results

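Expression was followed for 10 genes that encode secreted ligands and extracellular antagonists of the TGF-beta superfamily in cultured mouse fibroblasts with and without the DNA sensor cGAS. The ligands were Tgfb1, Tgfb2, Tgfb3, Inhba, Bmp2, Bmp4 and Gdf15, and the antagonists were Grem1, Fst and Nog. They were chosen by name, with earlier results of these data known, out of 45706 genes in the deposited gene table. All 10 were found there. The cells were primary mouse embryonic fibroblasts (MEFs, connective-tissue cells cultured from embryos) of strain C57B1/6 as the labels spell it, kept in 20% oxygen. The 2 genotypes were WT and cGAS KO, which lacks the cytosolic DNA sensor encoded by Mb21d1, and each was sampled on day 33 (passage 11), day 36 (passage 12) and day 42 (passage 14). The labels give no treatment other than culture, and they name neither the number nor the sex of the embryos behind each genotype.

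Ligands of this superfamily are secreted as dimers and bind pairs of type I and type II serine/threonine kinase receptors. TGF-betas and activins signal mainly through SMAD2 and SMAD3, and BMPs through SMAD1, SMAD5 and SMAD9, each set with SMAD4. Antagonists bind a ligand outside the cell and keep it from its receptors: Gremlin 1 and Noggin bind BMPs, and Follistatin binds activins. In fibroblasts TGF-beta is best known for inducing matrix and contractile genes. Several of these ligands, GDF15 and activin A among them, are counted among the factors that senescent cells secrete.

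Each genotype and day was deposited as 4 columns, which the labels number as replicates without saying whether they are separate cultures, libraries or runs. These agreed within sampling noise (mean chi-square per degree of freedom of 0.832 to 0.843, against 11.7 to 60.8 between columns of different groups) and were summed to 1 library, which leaves 1 library for each genotype on each day, or n = 3 for a genotype over all days. The 6 libraries held 25650577 to 48716880 counts. The targeted gene Mb21d1 was at 4.74, 4.08 and 4.81 CPM (counts scaled to a common depth, with TMM factors) in WT on days 33, 36 and 42. In KO it was at 0.239, 0 and 0.127 CPM (edgeR, adjusted p = 0.0102, and 0.0592 without KO day 42). The 0 on day 36 is a sum of estimated counts after rounding and allows a level of up to 0.112 CPM. Fibroblast markers summed to 26100 to 27700 CPM in WT and 21100 to 26700 CPM in KO, with Col1a1 and Col1a2 the highest of 10 genes. Of the 10, S100a4 was called by edgeR, at a mean of 376 CPM in WT and 199 CPM in KO (adjusted p = 0.0133). Thy1 (1102 and 508 CPM) and Dcn (88.6 and 12.9 CPM) also had all KO values below all WT values, and the other markers overlapped. Of 15 macrophage markers in the table, 1 stayed below 1 CPM in all 6 libraries. Their sum was 183, 38.3 and 11.4 CPM in WT and 85.1, 8.61 and 7.17 CPM in KO on days 33, 36 and 42. Adgre1, C1qa, C1qb, C1qc and Lyz2 had 0 counts after rounding in KO on day 42. Cartilage and bone markers summed to 81.2 to 90 CPM in WT and to 1160, 181 and 131 CPM in KO, the KO value of day 33 being mostly Col2a1 (1090 CPM). Of these markers edgeR called Sox9 (means of 20.1 CPM in WT and 38.0 CPM in KO, adjusted p = 0.0246) and Comp (1.02 and 5.61 CPM, adjusted p = 0.0244). Sums for WT and KO were 13.4 to 15.1 and 6.87 to 12 CPM for endothelial markers, with Kdr the highest. They were 19.6 to 39.7 and 19.8 to 24 CPM for epithelial markers, mostly Krt5. For skeletal muscle markers they were 352 to 655 and 202 to 340 CPM, nearly all Acta1 (350 to 653 and 201 to 333 CPM), with Myod1 at 0 throughout. They were 30.7 to 45.2 and 6.04 to 21.6 CPM for adipocyte and 69.1 to 93.4 and 85 to 87.6 CPM for neural markers, the latter mostly Tubb3 and Map2. The adipocyte marker Lpl was called by edgeR, at a mean of 23.7 CPM in WT and 2.61 CPM in KO (adjusted p = 0.0212). Xist, which is expressed from the inactive X of female cells, was at a mean of 0.201 CPM in WT and 528 CPM in KO, so that this mark of female cells moved with genotype. The part of these markers in the results below was not tested. In bulk RNA, fewer cells of a type and less RNA per cell cannot be told apart.

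The 10 genes fell into 4 levels of abundance. Levels between genes were compared per length, as the authors' deposited RPKM (reads scaled to gene length and depth) averaged over the 6 libraries. Grem1 (93.7 RPKM, range 44.9 to 223), Tgfb3 (75.1, range 42.0 to 104) and Inhba (63.7, range 41.1 to 80.2) had the highest means, with overlapping ranges. Fst followed at 29.9 RPKM (20.6 to 38.7), below the lowest library of each of these 3 genes. Tgfb1 (7.05 RPKM, range 5.60 to 7.97), Bmp4 (6.83, range 2.16 to 16.7) and Tgfb2 (6.03, range 2.59 to 11.4) overlapped one another. Nog (0.724 RPKM), Gdf15 (0.685 RPKM) and Bmp2 (0.138 RPKM) lay lowest, and their ranges also overlapped. Within one gene the highest library exceeded the lowest by 1.51-fold for Tgfb1 and by 31.9-fold for Bmp2 on the CPM scale.

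**Figure D1:**
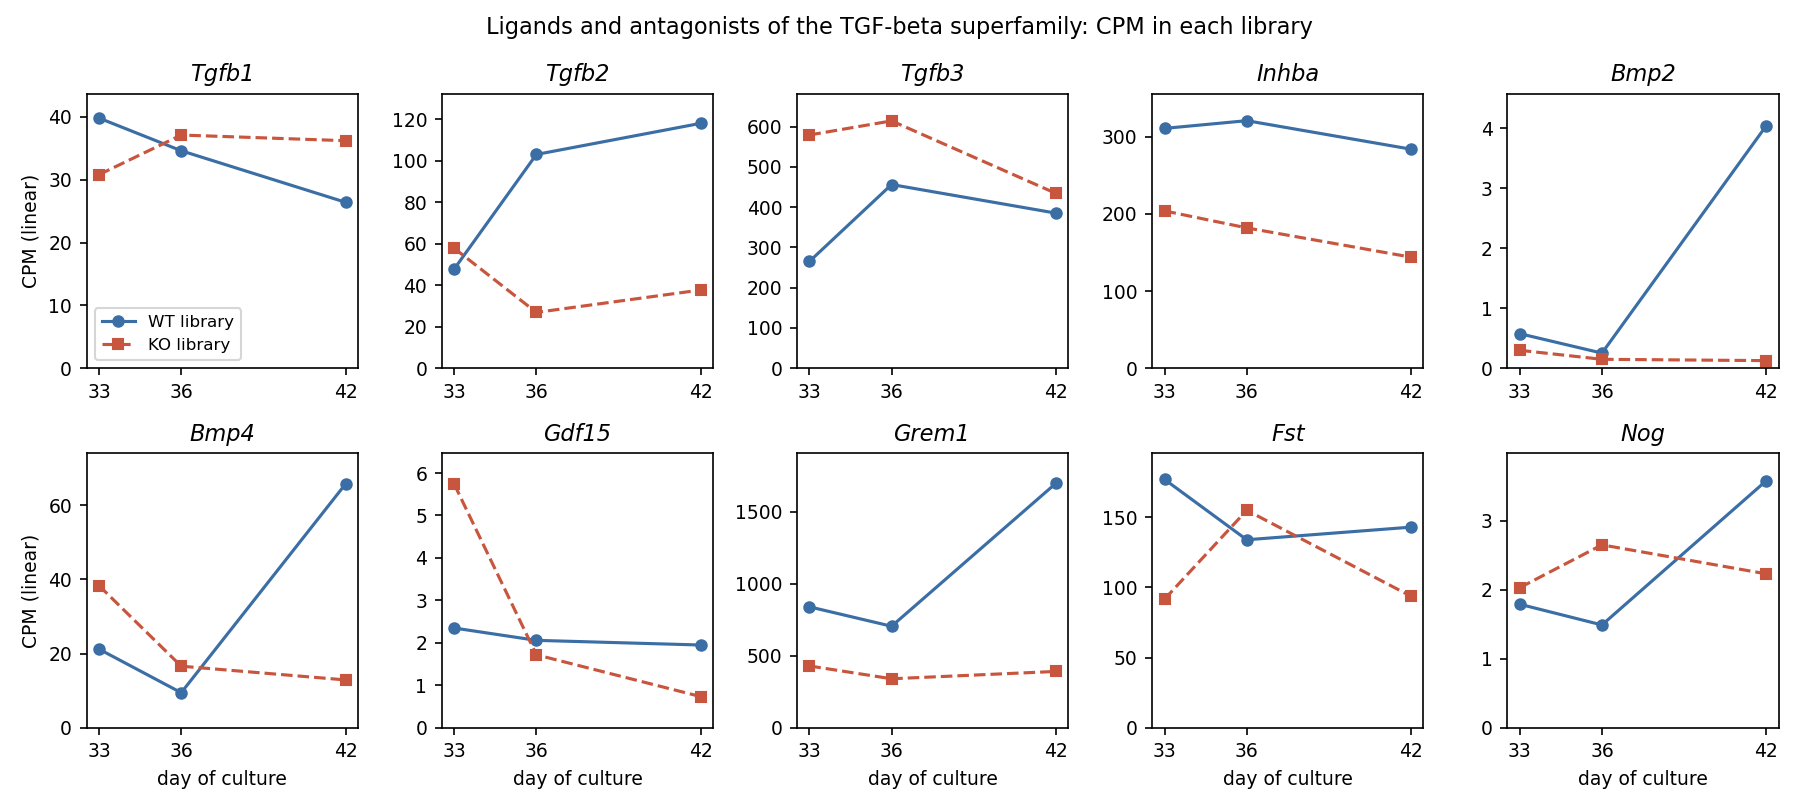
CPM of the 10 genes (vertical axes, linear, from 0) against day of culture (horizontal axes), with 1 point per library, WT as blue circles and KO as red squares. Inhba and Grem1 were lower in all 3 KO libraries than in any WT library, while Tgfb2, Bmp2, Bmp4, Grem1 and Nog had their highest value in WT on day 42.

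KO and WT were compared over the 3 days with edgeR's quasi-likelihood test, in which the days serve as replicates. Whether the days are separate cultures is not stated. The p-values reflect nothing more than how far these 3 libraries of a genotype scatter, with each gene's variance drawn toward that of other genes. This scatter holds any change with day, and part of it may be technical. Of the 10 genes, all of which passed the expression filter, 2 were called lower in KO (Inhba and Grem1) and 0 were called higher, at an adjusted p below 0.05. Among all 17233 genes tested, 8.72% were called, 4.65% lower and 4.07% higher. The median log2 fold change of the 10 genes was -0.46 and that of all genes -0.0073. With 10 genes, the share called cannot be set apart from this background. For 5 of the 10 the unadjusted p was below 0.05, against 27.3% of all genes.

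Inhba, which encodes the beta A subunit whose dimer is activin A, was lower in KO on every day. It lies on chromosome 13 (16011851 to 16031621, plus strand, GRCm38). Its level was 311, 321 and 284 CPM in the WT libraries of days 33, 36 and 42, against 204, 182 and 144 CPM in the KO libraries. All 3 KO libraries lay below all 3 WT libraries. The mean was 305 ± 19.4 CPM (SD, n = 3) in WT and 177 ± 30.4 CPM in KO, a log2 fold change of -0.79 ± 0.14 (SE, adjusted p = 0.0257). WT exceeded KO by 1.52-fold, 1.76-fold and 1.96-fold on the 3 days. The call was lost without any 1 of the libraries WT day 33, WT day 36, KO day 36 and KO day 42 (adjusted p = 0.0675 to 0.115) and held with day as a factor (adjusted p = 0.0247).

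Grem1, which encodes the BMP antagonist Gremlin 1, was also lower in KO on every day. Per length it was the highest of the 10 genes in all 3 WT libraries, while Tgfb3 was above it in all 3 KO libraries. It lies on chromosome 2 (113746164 to 113758646, minus strand). Its level was 841, 706 and 1700 CPM in WT and 430, 341 and 392 CPM in KO. The groups did not overlap, and the WT library of day 42 stood well above the other 2 WT libraries. The mean was 1080 ± 539 CPM in WT and 388 ± 44.6 CPM in KO (log2 fold change -1.48 ± 0.34, adjusted p = 0.0478). WT exceeded KO by 1.96-fold (counting interval 1.92 to 1.99) on day 33, by 2.07-fold on day 36 and by 4.33-fold (4.26 to 4.41) on day 42. Without WT day 42 the log2 fold change was -0.99 (adjusted p = 0.0186), and the call was lost without WT day 33 or any 1 of the 3 KO libraries (adjusted p = 0.0728 to 0.181). It was also lost with day as a factor (adjusted p = 0.0565). Of all genes, 34.3% had KO and WT values that did not overlap, 17% lower in KO, and among the 10 genes these were Inhba and Grem1.

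The promoters of these 2 called genes are shown with that of Tgfb2, described next, which edgeR did not call but DESeq2 did; the 3 were picked after their values were seen. The windows are the 250 bases before the start site, from the RefSeq table of build GRCm38.p6, which held windows for 6 of the 10 genes. Capitals mark matches, on either strand, to 6 short motifs: the SMAD box CAGAC, the GC-rich SMAD site GGCGCC, the TATA box TATAAA, the AP-1 site TGANTCA, the CRE TGACGTCA and the ATF4 element TGATGNAA.
Inhba, chr13:16011601-16011850, plus strand: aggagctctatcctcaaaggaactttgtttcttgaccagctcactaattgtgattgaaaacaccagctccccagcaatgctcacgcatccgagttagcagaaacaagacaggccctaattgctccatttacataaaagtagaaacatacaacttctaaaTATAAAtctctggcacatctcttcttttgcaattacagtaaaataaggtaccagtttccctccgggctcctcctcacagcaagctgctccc
Grem1, chr2:113758649-113758898, minus strand: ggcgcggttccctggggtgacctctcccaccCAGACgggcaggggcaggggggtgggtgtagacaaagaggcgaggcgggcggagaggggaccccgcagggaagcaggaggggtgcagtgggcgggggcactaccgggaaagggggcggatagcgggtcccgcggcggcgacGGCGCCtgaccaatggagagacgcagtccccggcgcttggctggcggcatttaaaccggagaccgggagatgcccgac
Tgfb2, chr1:186705990-186706239, minus strand: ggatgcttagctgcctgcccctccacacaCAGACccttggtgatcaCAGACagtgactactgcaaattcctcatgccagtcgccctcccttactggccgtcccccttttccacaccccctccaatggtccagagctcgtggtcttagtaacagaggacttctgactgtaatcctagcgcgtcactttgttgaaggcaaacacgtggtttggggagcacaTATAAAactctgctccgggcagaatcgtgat
The Inhba window held 1 TATA box, 91 bases before the start site. The Tgfb2 window held 1 TATA box, 31 bases before the start site, and 2 SMAD boxes. The Grem1 window held 1 SMAD box and 1 GC-rich SMAD site and no TATA box. Of 32851 windows of the same length, 42.2% held a SMAD box, 12.4% a TATA box and 9.59% a GC-rich SMAD site. The AP-1 site (6.75% of windows), the ATF4 element (3.45%) and the CRE (1.55%) had no match in the 3 windows. Of the windows not shown, those of Tgfb1 and Bmp4 held no match to any of the 6 motifs, and the 2 of Gdf15 held 1 SMAD box each. These matches describe letters in the windows and nothing about factors that bind there. The Inhba window belongs to the start of the transcript to which only 7.26% of the WT and 7.09% of the KO transcript counts of Inhba were assigned.

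The 3 TGF-beta ligand genes, whose products share the same receptors, differed from one another. Tgfb2 (chromosome 1, 186622792 to 186705989) had WT values of 47.8, 103 and 118 CPM and KO values of 57.8, 26.9 and 37.7 CPM on days 33, 36 and 42. KO was higher than WT on day 33 by 1.21-fold (counting interval 1.14 to 1.29), and WT was higher by 3.81-fold (3.52 to 4.13) on day 36 and by 3.14-fold (2.96 to 3.33) on day 42. The groups overlapped because of day 33, and over the 3 days the gene was not called (log2 fold change -1.13 ± 0.40, adjusted p = 0.133). It was called by edgeR without day 33, the only day with KO above WT (log2 fold change -1.77, adjusted p = 0.0351), and by DESeq2 (adjusted p = 0.0210). It was not called by edgeR without day 36 (-0.79, adjusted p = 0.54) or without day 42 (-0.82, adjusted p = 0.42). With any 1 library left out the edgeR adjusted p was 0.0837 to 0.336, and by limma-voom it was 0.151.

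Tgfb3 (chromosome 12, 86056745 to 86079041) had the opposite sign: 265, 456 and 385 CPM in WT against 579, 614 and 434 CPM in KO. KO was above WT on each day, by 2.19-fold, 1.35-fold and 1.13-fold, yet the lowest KO library lay below the highest WT library. The log2 fold change of 0.56 ± 0.23 did not pass (adjusted p = 0.178). Tgfb3 overlaps Ttll5 on the other strand, and whether counting used strand is not given in the sources used here. Ttll5 had 5530 counts over the 6 libraries beside 98714 of Tgfb3.

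Tgfb1 (chromosome 7, 25687002 to 25705077) stood at 39.8, 34.6 and 26.4 CPM across the WT days and 30.8, 37.1 and 36.2 CPM across the KO days. Its order was WT above KO on day 33 and KO above WT on day 42. The means were 33.6 ± 6.75 and 34.7 ± 3.42 CPM (log2 fold change 0.05 ± 0.17, adjusted p = 0.891).

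Fst, which encodes the activin-binding Follistatin, measured 177, 134 and 143 CPM in the WT libraries against 91.7, 155 and 93.7 CPM in the KO libraries. KO was lower on days 33 and 42 and higher on day 36, so the groups overlapped. The log2 fold change was -0.42 ± 0.23 (adjusted p = 0.302). Fst lies on chromosome 13 (114452290 to 114458951, minus strand), as does Inhba.

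Bmp4 and Bmp2, which encode ligands of BMP receptors, had their highest values in the WT library of day 42. Bmp4 (chromosome 14, 46383520 to 46390669) had WT values of 21.2, 9.46 and 65.7 CPM and KO values of 38.3, 16.6 and 12.9 CPM. KO was above WT by 1.81-fold on day 33 and 1.75-fold on day 36, and WT was above KO by 5.08-fold (counting interval 4.61 to 5.60) on day 42. The log2 fold change over the 3 days was -0.50 ± 0.74 (adjusted p = 0.71), and without WT day 42 it was 0.56 (adjusted p = 0.551).

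Bmp2 (chromosome 2, 133552159 to 133562885) rested on few counts, 27, 11 and 141 in WT and 10, 4 and 5 in KO. These correspond to 0.576, 0.252 and 4.04 CPM in WT and 0.299, 0.149 and 0.127 CPM in KO. On day 42 WT was 31.9-fold above KO (13.3 to 99.7), while on days 33 and 36 the counting intervals of the ratio included 1. The log2 fold change was -3.04 ± 1.14 (adjusted p = 0.147), and -1.11 without WT day 42. DESeq2 called the gene (log2 fold change -3.08, adjusted p = 0.0222).

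Nog, which encodes the BMP antagonist Noggin, lies on chromosome 11 (89300638 to 89302332). It stood at 1.79, 1.49 and 3.58 CPM across the WT days and 2.03, 2.65 and 2.23 CPM across the KO days. The highest value was again WT day 42, and the means of 2.29 ± 1.13 and 2.30 ± 0.31 CPM gave a log2 fold change of 0.01 ± 0.36 (adjusted p = 0.986).

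Gdf15, a distant member of the superfamily that is induced in stressed cells and acts through the receptor GFRAL, was low throughout and varied most in KO. It lies on chromosome 8 (70629393 to 70632456). Its level was 2.35, 2.06 and 1.95 CPM in WT and 5.74, 1.72 and 0.735 CPM in KO. WT varied by 1.21-fold between days and KO by 7.81-fold. KO was above WT by 2.45-fold (counting interval 1.92 to 3.12) on day 33, and WT was above KO by 2.65-fold (1.69 to 4.25) on day 42. Over the 3 days the log2 fold change was 0.36 ± 0.68 (adjusted p = 0.777). The KO library of day 33 was also the one with 1160 CPM of cartilage and bone markers. Macrophage markers were at 85.1, 8.61 and 7.17 CPM in KO and at 183, 38.3 and 11.4 CPM in WT on days 33, 36 and 42. The part of these markers in the Gdf15 values was not tested. Gfral itself was at 0 CPM in all 6 libraries.

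**Figure D2:**
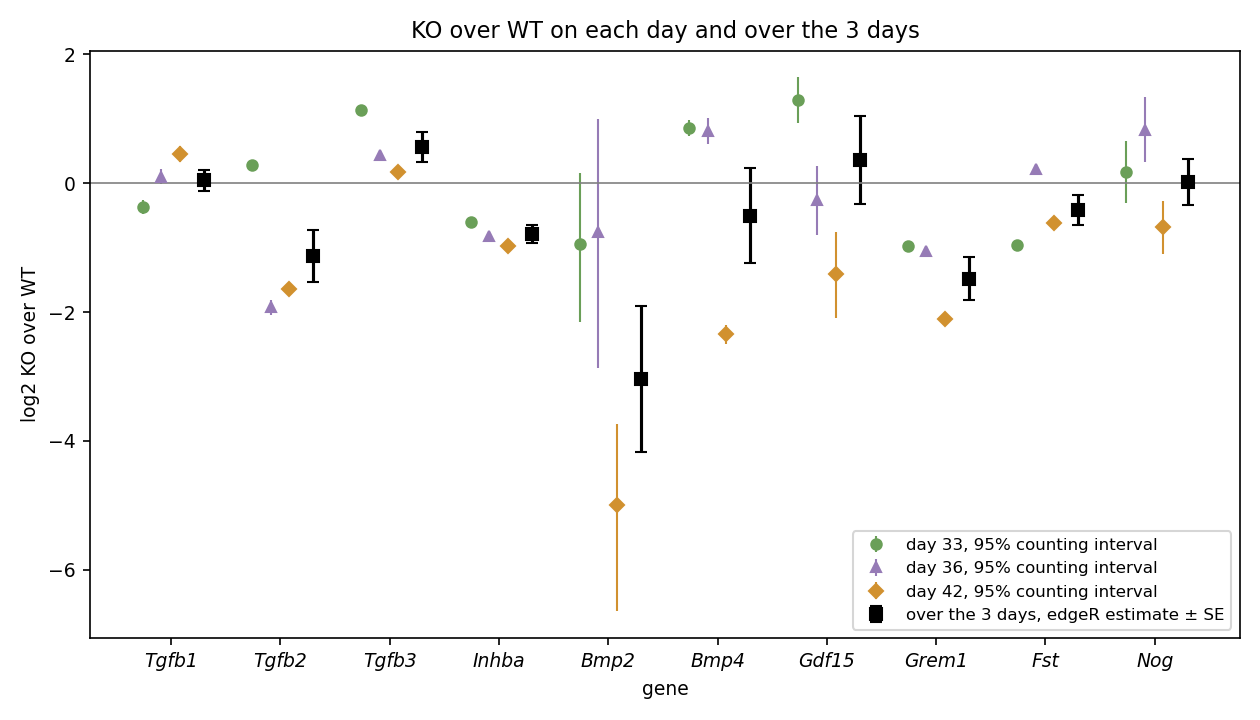
Log2 of KO over WT (vertical axis) for the 10 genes, per day with exact 95% counting intervals (1 library per genotype and day) and over the 3 days as the edgeR estimate ± SE (black squares, n = 3 per genotype). For Inhba and Grem1 all 3 days lie below 0 and for Tgfb3 all 3 lie above, while Tgfb2, Bmp4 and Gdf15 are above 0 on day 33 and below 0 on day 42.

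On single days, with 1 library per genotype, a difference of 2-fold or more was counted without a test, from log2 CPM with a prior count of 2. On day 33, 2 of the 10 genes were higher in KO (Tgfb3 and Gdf15) and 0 were lower, against 3.23% and 6.27% of all genes. On day 36, 2 were lower (Tgfb2 and Grem1) and 0 higher, against 7.43% and 4.02%. On day 42, 5 were lower (Tgfb2, Bmp2, Bmp4, Gdf15 and Grem1) and 0 higher, against 9.58% and 3.78%. For 6 genes (Tgfb1, Tgfb2, Bmp4, Gdf15, Fst and Nog) the counting interval of the ratio lay above 1 on 1 or more days and below 1 on another, against 13.8% of all genes tested. Such intervals are narrower for genes with more counts and cover counting error only. Whether the difference between genotypes changed with day was tested with a genotype by day term, with day as a number, in a fit added after the data were seen. By edgeR 0 of the 10 genes and 0 of all genes (0% called) passed, with adjusted p-values of 0.591 (Gdf15) to 0.981 (Fst) for the 10. The unadjusted p was below 0.05 for 3 of the 10 (Tgfb1, Bmp4 and Gdf15) and for 7.74% of all genes, and DESeq2 called 128 genes and 0 of the 10. This fit tests a steady change with day only.

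**Figure D3:**
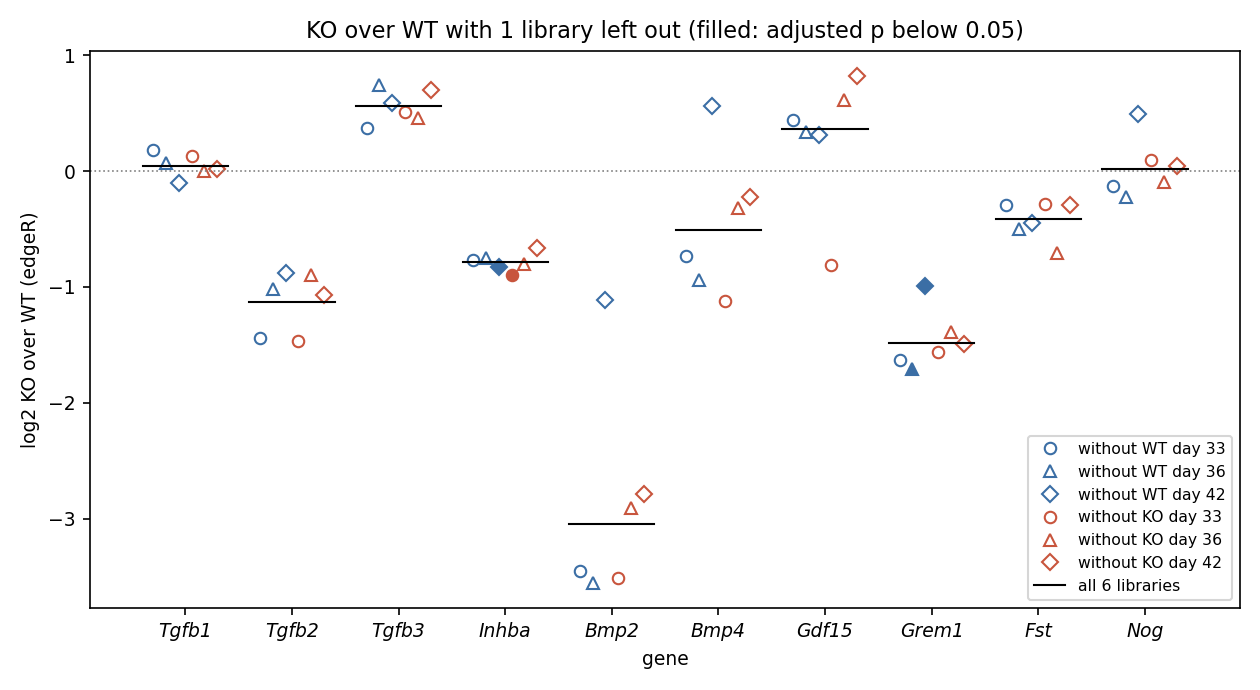
Log2 KO over WT by edgeR (vertical axis) for each of the 10 genes with 1 library left out, WT libraries in blue and KO libraries in red; filled symbols mark an adjusted p below 0.05 and the black line is the value with all 6 libraries. Inhba stays between -0.90 and -0.66 and Grem1 between -1.71 and -0.99, whereas Tgfb1, Bmp4, Gdf15 and Nog each cross 0 when 1 library is left out.

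Change with day was tested over both genotypes together, with genotype as a covariate. By edgeR 0 of the 10 genes were called, 0 of the genes of the pathway lists, and 0 of all 17233 (0% called). An unadjusted p below 0.05 was found for 0 of the 10 genes and for 9.59% of all genes. DESeq2 called 339 genes and 0 of the 10. The estimate for day 42 over day 33 was largest for Bmp2 (log2 1.61) and Gdf15 (log2 -1.61), whose adjusted p-values were 0.59 and 0.617. Bmp2 went up in WT and down in KO between these days, and Gdf15 went down in both genotypes, mostly in KO.

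Where the deposited annotation gave several transcripts, their shares were alike in the 2 genotypes. Of the Inhba transcript counts, 92.7% in WT and 92.9% in KO were assigned to the transcript that starts at 16014475. Of the Bmp4 transcript counts, 80.3% and 79.0% were assigned to 1 of 3 transcripts. For Tgfb2 the longest transcript took 71.1% and 68.1%, and for Tgfb1 81.2% and 80.8%. For Gdf15 the 2 transcripts took 57.8% and 42.2% in WT and 57.1% and 42.9% in KO. Tgfb3, Bmp2, Grem1, Fst and Nog had 1 transcript each. These shares are over summed libraries and carry no test.

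Other genes of the pathway were read from 7 lists. The lists were drawn up with earlier results of these data known, so the shares called are a description only. Over all 17233 genes DESeq2 called 2855, of which 1554 were lower and 1301 higher in KO. The DESeq2 counts of the lists are therefore not to be read against the 8.72% called by edgeR. Among the other ligands of the family 4 of 16 tested genes were lower in KO and 0 higher (25% called, beside 8.72% of all genes), and DESeq2 called 5 lower and 0 higher. The median log2 fold change of the list was -0.84, beside -0.0073 over all genes. It rests mostly on genes with low counts: apart from Inhbb, Bmp1 and Gdf11, the tested genes averaged at most 2.95 CPM (Nodal in WT). Gdf11, a ligand close to myostatin, fell from 43.9 ± 3.52 to 26.7 ± 0.52 CPM (log2 fold change -0.72 ± 0.09, adjusted p = 0.0104). Bmp1, in spite of its name a protease that cleaves procollagens and the BMP antagonist chordin, fell from 458 ± 63.2 to 262 ± 3.42 CPM (-0.81 ± 0.12, adjusted p = 0.0152). Gdf6, a BMP-type ligand of joints and skeleton, measured 3.27, 1.97 and 3.52 CPM in the WT libraries against 0.478, 0.149 and 0.127 CPM in the KO libraries (-3.52 ± 0.53, adjusted p = 0.0165). The remaining called gene was Bmp6, at a mean of 1.71 CPM in WT and 0.676 CPM in KO (-1.35 ± 0.28, adjusted p = 0.0376), named after its values were seen. Inhbb, the other activin beta subunit, had WT values of 87.5, 57.7 and 35 CPM and KO values of 54.0, 62.7 and 62.3 CPM (adjusted p = 0.989).

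Of 19 receptors and co-receptors tested, 2 were lower and 0 higher in KO (median -0.14). The share called by edgeR, 10.5%, was close to the 8.72% of all genes. DESeq2 called 6 lower and 0 higher, beside 1554 lower and 1301 higher of all genes. Acvr2a, a type II receptor for activins, fell from 47.6 ± 7.63 to 27.0 ± 2.23 CPM (-0.82 ± 0.14, adjusted p = 0.0232). Bmpr1b, a type I BMP receptor, stood at 27.4, 29.2 and 12.1 CPM across the WT days and 8.67, 6.45 and 5.45 CPM across the KO days (-1.74 ± 0.36, adjusted p = 0.0374). The TGF-beta receptors Tgfbr1 (adjusted p = 0.108) and Tgfbr2 (adjusted p = 0.938) were not called. Tgfbr1 had WT values of 48, 46.4 and 56.2 CPM and higher KO values of 57.8, 65 and 71.1 CPM. In this list 6 genes had all KO values below all WT values and 2 had them above, against 17% and 17.2% of all genes. The 6 include Kdr, which was also counted among the endothelial markers above. Of the other extracellular antagonists, Dcn, which encodes the TGF-beta-binding proteoglycan decorin, measured 72.0, 23.7 and 170 CPM in the WT libraries against 7.59, 12.8 and 18.3 CPM in the KO libraries (adjusted p = 0.0658).

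None of the 18 latency and activation genes tested (median -0.10) and none of the 17 SMADs and SMAD regulators tested (median 0.10) were called by edgeR. The unadjusted p was below 0.05 for 6 and 3 of them, against 27.3% of all genes. Ltbp4, which tethers latent TGF-beta to the matrix, had WT values of 35.3, 32.1 and 38.2 CPM and KO values of 39.9, 114 and 128 CPM (adjusted p = 0.0836). Lrrc32, which holds latent TGF-beta on the cell surface, stood at 383, 336 and 259 CPM across the WT days and 232, 76.3 and 79.9 CPM across the KO days (adjusted p = 0.124). DESeq2 called 2 higher and 3 lower among the latency and activation genes and 1 higher and 0 lower among the SMADs and their regulators.

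Of 20 TGF-beta target genes, 1 was lower and 0 higher (median -0.04): Cdkn2b, a cell cycle inhibitor, from 58.7 ± 2.87 to 16.9 ± 6.93 CPM (-1.79 ± 0.27, adjusted p = 0.0169). This is 5% called, beside 8.72% of all genes. DESeq2 called 3 higher and 4 lower. The unadjusted edgeR p was below 0.05 for 9 of the 20, against 27.3% of all genes. The contractile genes Acta2, at 4485 ± 865 CPM in WT and 2830 ± 715 CPM in KO (adjusted p = 0.135), and Tagln, at 3634 ± 571 and 2478 ± 454 CPM (adjusted p = 0.123), had KO values below all WT values but did not pass. Timp1 (adjusted p = 0.0921), Lox (0.159) and Tgif1 (0.178) had KO values above all WT values and did not pass either. In this list 5 genes had all KO values below all WT values and 3 had them above, against 17% and 17.2% of all genes. The targets Ctgf (adjusted p = 0.908) and Pmepa1 (0.956) and the matrix genes Col1a1 (0.644) and Fn1 (0.997) were not called. Of 14 BMP target genes, 2 were lower and 1 higher (median -0.44), which is 21.4% called beside 8.72% of all genes, and DESeq2 called 5 lower and 1 higher. The homeobox gene Msx2 measured 7.77, 13.1 and 9.54 CPM in the WT libraries against 1.85, 0.895 and 0.481 CPM in the KO libraries (-3.24 ± 0.49, adjusted p = 0.0169), and Id4 fell from 16.5 ± 2.58 to 5.36 ± 2.30 CPM (-1.62 ± 0.30, adjusted p = 0.0286). Dlx5, named after its values were seen, was higher in KO, at 2.30, 1.34 and 1.37 CPM against 0.0854, 0.115 and 0.286 CPM in WT (log2 fold change 3.4 ± 0.48, adjusted p = 0.0140). The most direct BMP readouts Id1, Id2 and Id3 had adjusted p-values of 0.668, 0.911 and 0.817. Lists share genes such as Smad6 and Smad7, so their counts are not independent. They were also drawn up with earlier results of these data known. Each of the 10 genes named here as called kept its direction in all 20 alternatives and was called in 10 (Bmp6) to 15 of them.

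**Figure D4:**
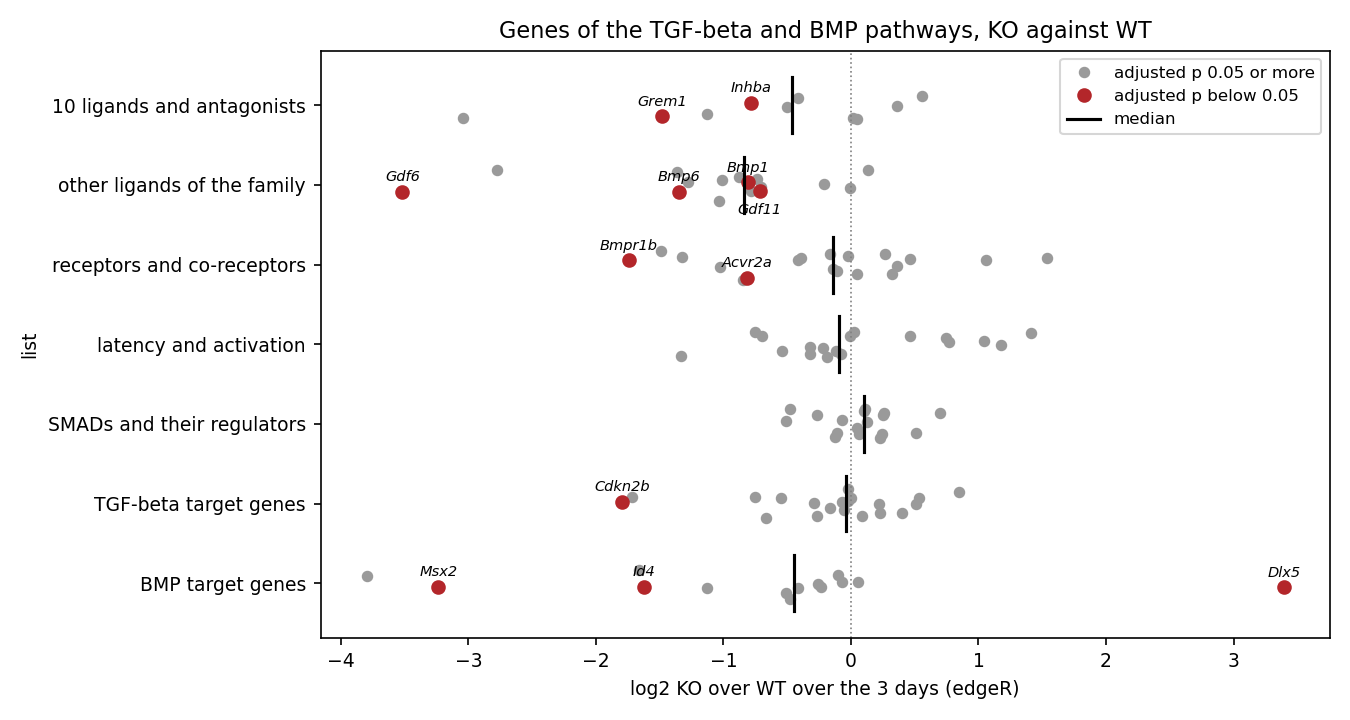
Log2 KO over WT over the 3 days by edgeR (horizontal axis) for each tested gene of the 10 ligands and antagonists and of 6 of the 7 pathway lists (rows; vertical scatter is only for display). Red points had an adjusted p below 0.05, grey points did not, and black bars are medians; apart from Dlx5 the called genes lie below 0.

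For the 2 called genes, the genes with the most similar pattern over the 6 libraries were found by Pearson correlation of log2 CPM among 10104 genes that averaged 5 CPM or more. Nearest to Inhba were Zfand3 (r = 0.996) and Gopc (r = 0.995), and 274 genes had an r above 0.95. Nearest to Grem1 were Tmco3 (r = 0.998) and Asb1 (r = 0.998), and 233 genes had an r above 0.95. With 6 libraries that share 2 genotypes and 3 days, such values are a description only.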

How the data were processed

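RNA was extracted from bulk fibroblasts and made into TruSeq stranded mRNA libraries, per the labels' protocols. Deposited values are estimated counts of genes and of transcripts (not whole numbers, not normalized) and RPKM of genes, per the file headers. The submitters' processing notes name mm10, Bowtie2 2.2.1 and limma 3.18.13 without roles; how reads were assigned to genes, with which annotation and whether by strand, is not given in the sources used here. Gene coordinates are from GENCODE M21 on GRCm38, the same assembly as mm10, matched by gene ID; transcript starts are the deposited ones raised by 2 bases, their offset from it.

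The 24 columns were summed to 6 libraries after the 4 columns of each group had been compared, and rounded. Of 45706 genes, 28938 had a count and 17233 passed filterByExpr. The genotypes were tested by edgeR 4.0.16 in R 4.3.3 (TMM, robust quasi-likelihood test, Benjamini-Hochberg over all genes, threshold 0.05), and day with genotype as covariate. A genotype by numeric day term was added after the data were seen. The SE was approximated from the fold change and its F statistic. Ratios between single libraries have exact 95% conditional intervals for counting error only. Transcript shares were taken within each gene. Fits were tested on simulated data. As alternatives, the fit was repeated without a filter, with other size factors, by limma-voom (limma 3.58.1) and DESeq2 1.42.0, on the 24 columns with and without a replicate block, with day as a factor, and leaving out libraries, days or columns.

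The 2 genes with the highest r were named for each called gene, leaving out predicted names. The 10 genes and the lists were chosen with earlier results of these data known. Named pathway genes are up to 3 per list by adjusted p among those called with at least 1 CPM on average; other genes named were chosen after their values were seen. Some pathway genes are not reported here.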

Additional observations from a re-analysis of the deposited data

Results flagged for a closer look

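For 6 of the 10 genes KO lay above WT on 1 day and below it on another, with counting intervals of the ratio that exclude 1 on both. The same held for 13.8% of all genes tested. The intervals cover counting error only and are narrower for genes with more counts. These pairs of days were not tested against each other, since each genotype and day is 1 library. A steady change of the ratio with day passed for 0 of the 10 genes (edgeR, adjusted p of 0.591 to 0.981). The unadjusted p was below 0.05 for 3 of them, against 7.74% of all genes. The KO over WT ratio of Tgfb1 was 0.774 on day 33 and 1.37 on day 42. That of Tgfb2 was 1.21 on day 33 and 0.263 on day 36. That of Bmp4 was 1.81 on day 33 and 0.197 on day 42, and that of Gdf15 was 2.45 on day 33 and 0.377 on day 42. Fst had a ratio of 0.516 on day 33 and 1.16 on day 36, and Nog one of 1.78 on day 36 and 0.623 on day 42.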

How the results depend on the processing

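The number of genes called between KO and WT (1503, of which 2 of the 10) ranged from 24 to 1811 when 1 library or column was left out (0 to 2 of the 10). It was 429, 3 and 539 without days 33, 36 and 42 (1, 0 and 1 of the 10), 2855 by DESeq2 (4 of the 10), and with all 24 columns as separate libraries 11107 (7 of the 10). With the replicate block on the 24 columns it was 11176 (7 of the 10). The columns share only a number: deviations of same-numbered columns had correlations of -0.0247 to 0.0375. Without a filter 1266 genes were called (1 of the 10), and with day as a factor 1338 (1 of the 10). For day, 0 genes were called, 0 to 3 with 1 library or column left out, 339 by DESeq2, 11140 with 24 columns (10 of the 10) and 11221 with the replicate block (10 of the 10). Whether the columns are replicates or runs of 1 library is not stated; their spread within a group was no larger than sampling noise. The genotype by day term, added after the data were seen, called 0 genes, 128 by DESeq2 and 0 with any 1 library left out.

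Directions that changed were those of genes not called. Gdf15 was at -0.14 with 24 columns, with or without the replicate block, -0.16 by limma-voom, -0.05 with day as a factor, -0.73 without day 33 and -0.81 to 0.82 with 1 library or column left out. Nog was at 0 without a filter, -0.05 and -0.33 without days 33 and 36, and -0.22 to 0.49 with 1 library or column left out. Tgfb1 was at -0.13 without day 42 and -0.10 to 0.18 with 1 library or column left out. Bmp4 was at 0.85 without day 42 and -1.12 to 0.56 with 1 library or column left out. Inhba and Grem1 kept their direction in all 20 alternatives and were called in 14 and 11. The cause of each change was not tested.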

Other observations

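Among the pathway genes, some had a value in WT day 42 above the other 5 libraries, as Tgfb2, Bmp2, Bmp4, Grem1 and Nog did. They were picked after their values were seen and carry no test. The homeobox gene Msx1 had WT values of 3.24, 1.56 and 10.9 CPM and KO values of 0.867, 0.112 and 0.127 CPM. Bmp5 stood at 0.534, 0.275 and 2.66 CPM across the WT days and 0.359, 0.112 and 0.0253 CPM across the KO days. Htra3, a secreted protease, measured 5.83, 2.41 and 14.0 CPM in the WT libraries against 2.84, 1.04 and 2.36 CPM in the KO libraries. Ltbp2, a matrix protein of the latent TGF-beta binding family, had WT values of 838, 814 and 1580 CPM and KO values of 748, 596 and 569 CPM.

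For other genes the KO library of day 33 stood above those of days 36 and 42, which were far below WT. Eng, the co-receptor endoglin, stood at 23.0, 35.5 and 25.3 CPM across the WT days and 29.1, 2.35 and 1.95 CPM across the KO days (adjusted p = 0.446). Postn, a matrix protein induced by TGF-beta, measured 2100, 1570 and 2230 CPM in the WT libraries against 1280, 223 and 281 CPM in the KO libraries (adjusted p = 0.164). Ltbp4 went the other way, as given above.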
